A study of Mus musculus with 25 samples.

Results

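The adhesion molecules of the immunoglobulin family described here are 10 listed genes: Ncam1, Mcam, Alcam, L1cam, Icam1, Vcam1, Nectin1, Nectin2, Bcam and Ceacam1. Each was followed through the probe set that carries its symbol alone and has the greatest mean signal in its table. Mouse exon arrays measured 9 of the 10, among 18997 genes, and mouse gene arrays all 10, among 19938. Alcam has no probe set under its own symbol in the exon-array annotation used here, so it is followed on the gene arrays only. Probe sets were chosen by that mean and by no contrast. The genes were listed with earlier results of these data known, among them the higher Ncam1 signal of exon-array platelet cultures, and that difference is given below without a test.

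The cells are mouse Ep5 (EpRas) mammary tumour cells, 1 line throughout, with C57BL/6 given as the background strain. On the exon arrays, one group was cultured for 24 h with wild-type C57BL/6 platelets at about 1000 platelets per cell (n = 5, replicates 1 to 5). A second received platelets at about the same ratio only at lysis (n = 3, replicates 4 to 6), which shows the RNA that platelets themselves carry, and the remaining group was grown alone (n = 5, replicates 1 to 5). On the gene arrays, cells were cultured for 24 h with whole platelets, with the pellet of thrombin-treated platelets, or with the releasate, the supernatant of the same kind of spin, and compared with cells alone (n = 3 each, replicates 7 to 9). The tag that describes the platelets contradicts the source name for gene-array samples alone 8 and platelets 9, which stayed where the source name puts them. The labels do not say whether samples came from separate cultures, so p values reflect the scatter among these samples only, and that may be technical.

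Adhesion molecules of this family carry immunoglobulin-like domains outside the cell and bind either a copy of themselves or another receptor on a neighbouring cell, on leukocytes or in the matrix. Ncam1 is the neural cell adhesion molecule, which binds itself and the fibroblast growth factor receptor, and it is known to be induced when mouse mammary epithelial cells undergo epithelial-mesenchymal transition. Nectins join epithelial cells at adherens junctions through the linker afadin, while Icam1 and Vcam1 are best known as inducible ligands of leukocyte integrins.

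Deposited values are log2 signals after RMA, the standard normalization of these arrays, and the 2 tables were normalized separately. Differences are log2 values from limma with their standard error (SE), fitted on all genes of a table. A gene counts as changed at a Benjamini-Hochberg adjusted p below 0.05 over that table. The median signal of an exon array was 3.62 to 3.90 and that of a gene array 5.56 to 5.63. Of 9 epithelial markers, 8 were measured on the exon arrays, and their mean lay between 9.19 and 9.76 on all 13 arrays, far above the medians. That mean does not speak for each marker, since Krt19 averaged 3.08 and Krt5 3.55 in cells alone, under those medians. Endothelial markers averaged 3.12 to 3.32 on the exon arrays. On the gene arrays the epithelial mean was 9.35 to 9.88.

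**Figure D1:**
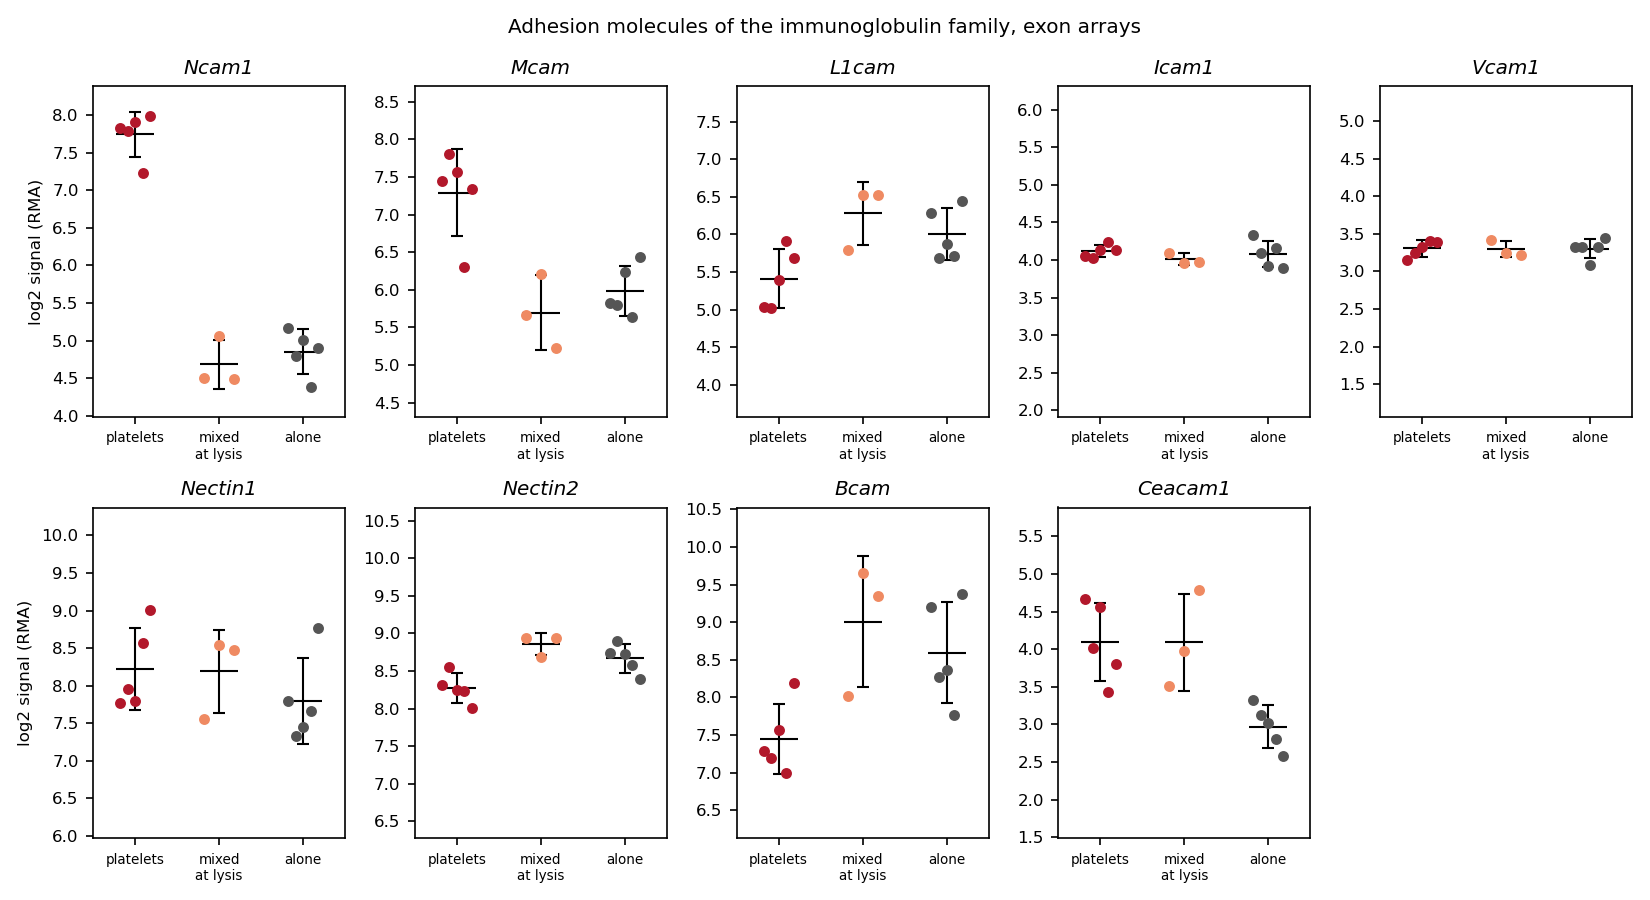
Log2 signal of the 9 members on the exon arrays, 1 dot per array, with the mean and SD of each group as a bar (platelets n = 5, mixed at lysis n = 3, alone n = 5). The 5 platelet cultures lie above all other arrays for Ncam1, while Ceacam1 is as high in the samples mixed at lysis as in the platelet cultures.

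With platelets on the exon arrays, Mcam and Ceacam1 were the 2 of 8 tested members past the threshold against cells alone, both higher, and 0 were lower. Ncam1 is left out of this count, since its difference was known when the genes were listed. Over all genes of the exon arrays 4.55% were past the threshold in this comparison, 2.07% higher and 2.47% lower. The groups did not overlap for 1 of the 8 members, beside 5.51% of all genes. The median difference of the 8 members was 0.02, beside 0.00 over all genes. Against cells mixed with platelets at lysis, 1 of the 8 was higher (Mcam) and 1 was lower (Nectin2), where 3.68% of all genes were past the threshold, 1.54% higher and 2.14% lower. There 2 of 8 members had groups that did not overlap, beside 11.7% of genes. Between cells mixed at lysis and cells alone 0 of 9 members passed by limma, beside 0.0474% of all genes, and 1 of 9 had groups apart, beside 3.31%. At an unadjusted p below 0.05 there was 1 of 9, Ceacam1, beside 3.94% of all genes. Without Ncam1 the same cutoff gave 5 of 8 for platelets against alone, beside 13.4% of all genes. Against mixed at lysis it gave 4 of 8, beside 13.7%.

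Ncam1 (probe set 6995454 on the exon arrays) had log2 signals of 7.82, 7.79, 7.90, 7.23 and 7.99 in platelet cultures 1 to 5. In cells mixed with platelets at lysis it had 4.50, 5.06 and 4.49 (replicates 4 to 6), and in cells alone 5.17, 4.79, 5.01, 4.38 and 4.90. Every platelet culture lay above every sample of the other 2 groups, and the samples mixed at lysis all lay within the range of cells alone. The difference was 2.89 ± 0.18 (SE) from cells alone, a 7.44-fold higher signal, and 3.06 ± 0.21 from cells mixed at lysis. Within replicates 1 to 3 the difference from alone was 2.85 and within 4 and 5 it was 2.97. Mixed at lysis minus alone gave -0.17 ± 0.21, with a 95% interval of -0.61 to 0.28 (adjusted p = 0.945 by limma). In such bulk RNA a change in the number of cells and a change in RNA per cell cannot be told apart, and RMA signals have no zero that would mark an absent gene. Platelet marker signal in the mixed samples lay within the range of the cultures: 13 of 15 listed platelet markers were measured, and their mean per array was 4.68 to 6.69 in the cultures, 5.66 to 6.03 in samples mixed at lysis and 3.65 to 3.90 in cells alone. Fibroblast markers (6 of 6 measured) averaged 3.79 to 4.25 in the cultures, 3.72 to 3.88 mixed at lysis and 3.65 to 3.93 alone, with 0 of 6 past the threshold, and their part in the Ncam1 difference was not tested.

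On the gene arrays Ncam1 (probe set 10593293) was measured in other samples. It had 9.12, 9.20 and 9.83 with whole platelets and 7.73, 9.49 and 8.96 with the pellet (replicates 7, 8 and 9). With the releasate it had 7.56, 8.13 and 7.91, and in cells alone 7.30, 7.39 and 6.97. Whole-platelet cultures were the highest group except for pellet 8, pellet 7 was the lowest of its group and lay among the releasate samples, and all releasate samples lay above all samples alone. The difference from cells alone was 2.17 ± 0.36 with platelets (adjusted p = 0.0235 by limma), 1.51 ± 0.36 with the pellet (adjusted p = 0.122) and 0.65 ± 0.36 with the releasate (adjusted p = 1). These 3 comparisons share their control samples. Thus Ncam1 rose with whole platelets, a 4.49-fold change, while the pellet and releasate differences did not pass.

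Mcam, also called CD146, binds laminins and galectins and is known from melanoma and blood vessels. On the exon arrays (probe set 6988609) it had 7.45, 7.80, 7.57, 6.30 and 7.34 in platelet cultures 1 to 5. Samples mixed at lysis had 5.66, 6.21 and 5.22, and cells alone 5.83, 5.80, 6.24, 5.64 and 6.43. Of the cultures, 4 lay above all cells alone, and platelets 4 lay between alone 3 and alone 5. Mcam rose by 1.30 ± 0.28 against alone (adjusted p = 0.0159 by limma) and by 1.60 ± 0.32 against mixed at lysis (adjusted p = 0.0133), while mixed at lysis minus alone was -0.29 ± 0.32. The call against mixed at lysis was lost without mixed at lysis 6 (1.36, adjusted p = 0.0869) and with the number sets 1 to 3 and 4 to 6 as a block (1.38, adjusted p = 0.0658). Within replicates 1 to 3 the difference from alone was 1.65 and within 4 and 5 it was 0.79, and the test of that difference between number sets gave an adjusted p of 0.717, with 0% of genes called.

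Gene arrays gave Mcam (probe set 10584674) at 8.29, 8.67 and 8.72 with whole platelets and 7.77, 8.61 and 8.29 with the pellet, in replicates 7, 8 and 9. The releasate samples had 7.08, 7.67 and 7.10 and cells alone 7.48, 7.32 and 6.85. All platelet and pellet samples lay above all releasate and alone samples, and the releasate samples overlapped cells alone. Mcam rose by 1.34 ± 0.24 with platelets (adjusted p = 0.0297 by limma), a 2.53-fold change, and differed by 1.00 ± 0.24 with the pellet (adjusted p = 0.113) and by 0.06 ± 0.24 with the releasate (95% interval -0.45 to 0.58). Compared directly, platelets minus releasate was 1.28 ± 0.24 for Mcam (adjusted p = 0.125) and 1.52 ± 0.36 for Ncam1 (adjusted p = 0.235), in a comparison where 0 of 10 members and 0.0451% of all genes passed (0.0351% higher), and where groups were apart for 2 members and 11.3% of genes. Pellet minus releasate was 0.94 ± 0.24 for Mcam and 0.86 ± 0.36 for Ncam1, and neither passed (0.00502% of all genes, all of them lower). Those groups were apart for 1 member, Mcam, beside 10.2% of genes. Between platelets and pellet 0 of 10 passed (0% of genes) and 0 had groups apart (6.15% of genes), with 0.66 ± 0.36 for Ncam1 and 0.34 ± 0.24 for Mcam.

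Of the 10 members on the gene arrays, Ncam1 and Mcam were the 2 that passed with platelets, both higher, where 0.667% of all genes passed and 0.411% were higher. With the pellet 0 of 10 passed by limma (0.416% of all genes) and with the releasate 0 of 10 (0% of all genes). Groups did not overlap for 4 of 10 members with platelets (16.1% of all genes), 3 with the pellet (15.9%) and 1 with the releasate (8.71%). At an unadjusted p below 0.05 there were Ncam1, Mcam, Alcam, Bcam and Nectin1 with platelets, beside 9.61% of all genes. There were 3 of 10 members with the pellet (Ncam1, Mcam and Nectin2), beside 9.63%, and 0 with the releasate, beside 2.82%. Leaving out alone 7, 8 or 9, or platelets 8 or 9, ended both the Ncam1 and the Mcam call, with adjusted p values up to 0.136 for Ncam1 and 0.157 for Mcam, while their differences stayed between 1.94 and 2.30 and between 1.16 and 1.47. Without platelets 7 both calls held (adjusted p = 0.0453 for Ncam1 and 0.0438 for Mcam). Without alone 8 and platelets 9, the 2 samples with contradictory tags, the differences were 2.03 (adjusted p = 0.133) and 1.31 (adjusted p = 0.151). In the pellet comparison both passed without pellet 7, at 2.01 for Ncam1 (adjusted p = 0.00869) and 1.23 for Mcam (adjusted p = 0.0392). Platelet markers, of which 12 of 15 were measured, averaged 5.93 to 6.01 with platelets, 5.82 to 5.92 with the pellet, 5.43 to 5.48 with the releasate and 5.50 to 5.60 alone. That mean does not speak for the whole list. Against alone 8 of 12 were above 0 and 2 passed as higher, with platelets and with the pellet alike (0.411% and 0.236% of all genes). Their median differences were 0.09 and 0.05 and the highest 1.86 and 1.60. No sample mixed at lysis exists on these arrays, so the part of platelet RNA in the Ncam1 and Mcam differences was not tested there. Fibroblast markers (6 of 6 measured) averaged 5.42 to 5.49 with platelets, 5.41 to 5.50 with the pellet, 5.35 to 5.42 with the releasate and 5.29 to 5.37 alone, and 0 of the 6 passed in any of these comparisons. Their part in the Ncam1 and Mcam differences was not tested.

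**Figure D2:**
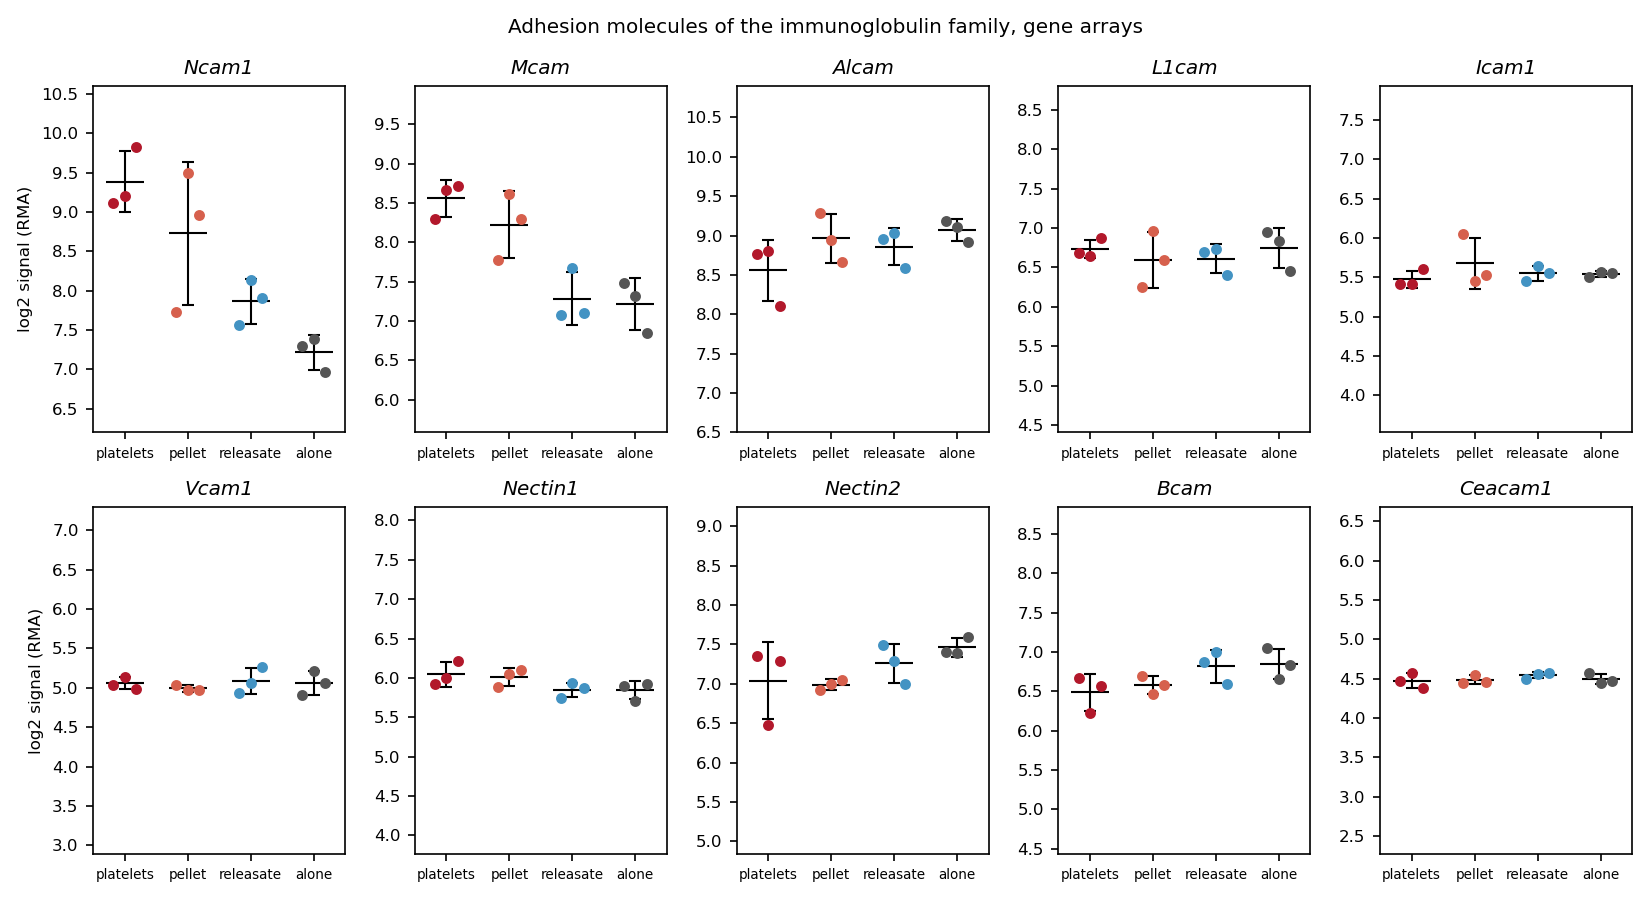
Log2 signal of the 10 members on the gene arrays, 1 dot per array, with the mean and SD of each group as a bar (n = 3 each). Ncam1 and Mcam are high with platelets and with the pellet, whose replicate 7 is the lowest pellet sample for both (7.73 and 7.77).

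The 250 bases before the annotated start of Mcam are shown because it is the member that was tested and rose in both tables, beside those of Nectin2 and Bcam, neighbours whose mean signal was lower with platelets in both tables. All are from RefSeq on GRCm38.p6, whose promoter table has an entry for 7 of the 10 members. Capitals mark matches, on either strand, to any of 6 motifs. The factor SP1 binds GGGCGG, and Snail and Zeb factors bind the E-box CACCTG. The AP-1 motif was searched as TGANTCA, the motif of TEAD factors as GGAATG, and the TATA box with the letters TATAAA. The NF-kappaB motif was the remaining search.
Mcam, chr9:44134408-44134657, plus strand: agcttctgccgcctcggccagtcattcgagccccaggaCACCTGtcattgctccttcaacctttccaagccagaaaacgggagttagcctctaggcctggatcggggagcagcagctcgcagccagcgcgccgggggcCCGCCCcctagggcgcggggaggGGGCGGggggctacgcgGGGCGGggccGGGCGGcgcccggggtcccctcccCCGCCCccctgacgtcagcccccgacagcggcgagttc
Nectin2, chr7:19749574-19749823, minus strand: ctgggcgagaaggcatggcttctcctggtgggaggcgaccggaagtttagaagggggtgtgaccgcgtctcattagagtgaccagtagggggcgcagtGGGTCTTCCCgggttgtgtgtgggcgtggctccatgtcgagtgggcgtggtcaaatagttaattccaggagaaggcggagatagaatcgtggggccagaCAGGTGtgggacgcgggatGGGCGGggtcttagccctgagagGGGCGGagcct
Bcam, chr7:19770533-19770782, minus strand: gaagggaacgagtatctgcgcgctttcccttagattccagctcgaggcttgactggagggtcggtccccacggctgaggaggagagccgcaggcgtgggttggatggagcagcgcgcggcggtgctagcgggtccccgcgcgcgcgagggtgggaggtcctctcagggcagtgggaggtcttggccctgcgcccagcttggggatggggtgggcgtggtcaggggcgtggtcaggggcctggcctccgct
Mcam has 5 matches to GGGCGG, between positions -112 and -38 from the start, and 1 to CACCTG at -212. Nectin2 has 2 matches to GGGCGG, 1 to CACCTG at -53 and 1 to the NF-kappaB motif at -152, and the Bcam window has 0 matches. No matches overlap. Of all 32851 windows of this length, 32.7% hold GGGCGG, 17.2% CACCTG, 4.11% the NF-kappaB motif, 6.75% TGANTCA, 12.6% GGAATG and 12.4% TATAAA, and the matches are a description only.

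Ceacam1, a homophilic adhesion molecule of epithelia and leukocytes that is also found on platelets, had a different pattern. On the exon arrays (probe set 7003899) it had 4.67, 4.02, 4.56, 3.43 and 3.80 in platelet cultures 1 to 5. Samples mixed at lysis had 3.51, 3.98 and 4.79, and cells alone 3.32, 3.12, 3.02, 2.80 and 2.58. All cultures and all mixed samples lay above all samples alone, and the mixed samples overlapped the cultures. The mean of cells alone, 2.97, lay under the 25th percentile of gene means (3.30), near background, so the size of the differences from alone is uncertain. Ceacam1 rose by 1.13 ± 0.27 with platelets against alone (adjusted p = 0.0342 by limma) and differed by 0.00 ± 0.32 between platelets and mixed at lysis, with a 95% interval of -0.68 to 0.69. Mixed at lysis minus alone was 1.12 ± 0.32 without passing (adjusted p = 0.945, unadjusted p = 0.00383).

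Platelet marker signal, like Ceacam1, was higher in the cultures and in the mixed samples than in cells alone (13 of 15 markers measured, ranges as given for Ncam1 above). Among the mixed samples Ceacam1 was highest in replicate 6 (marker mean 5.71) and the marker mean in replicate 5 (6.03). Whether the 2 go together within groups was not tested. Leukocyte markers, 10 of 12 measured, averaged 3.67 to 3.86 in the cultures, 3.71 to 3.79 mixed at lysis and 3.33 to 3.53 alone. That mean does not speak for the list as a whole. Mixed at lysis minus alone, 5 of the 10 were above 0, with a median of 0.00 and single differences from -0.15 to 3.27. In the cultures minus alone 8 of the 10 were above 0 and 2 passed, both higher, where 2.07% of all genes were higher. The median there was 0.07 and the highest difference 2.33. The part of platelet or leukocyte RNA in the Ceacam1 difference was not tested beyond the mixed samples. The call against alone was lost in 7 of 10 fits that left out 1 array (without alone 2, 3, 4 or 5 or platelets 1, 2 or 3), at adjusted p values of up to 0.0921. Gene-array Ceacam1 (probe set 10561008) lay between 4.38 and 4.57 in all 12 samples, under the 25th percentile of gene means (4.87), near background, and differed by -0.02 ± 0.06 with platelets (adjusted p = 0.971). 

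**Figure D3:**
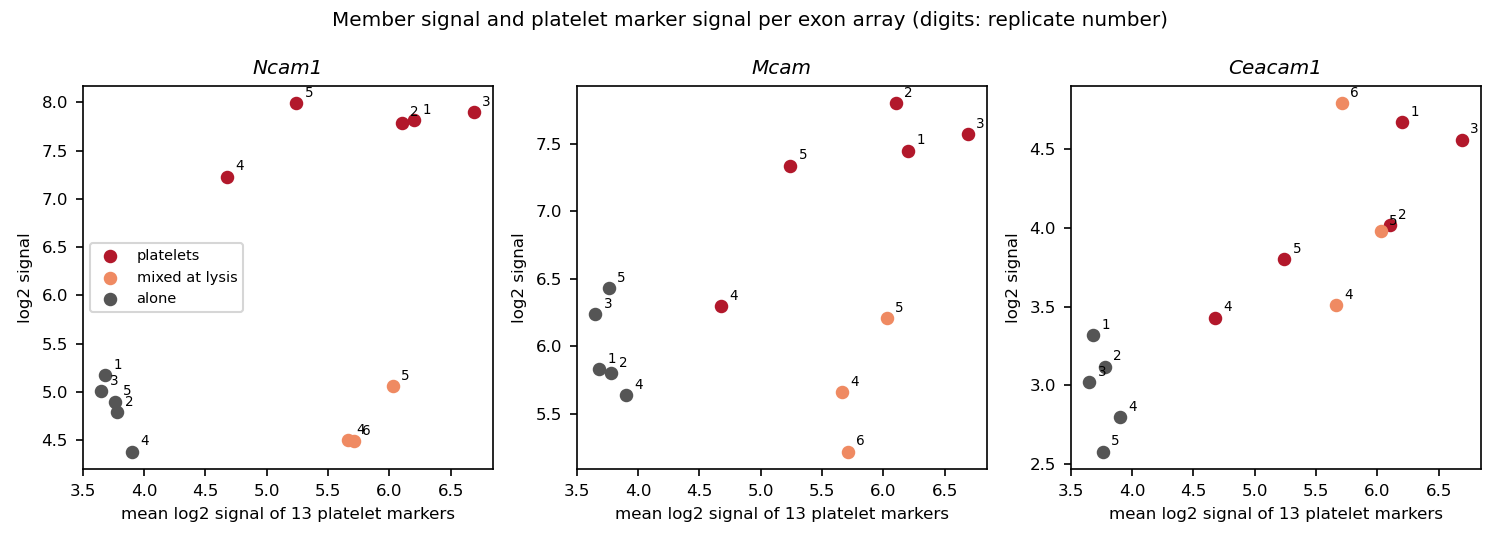
Log2 signal of Ncam1, Mcam and Ceacam1 on each exon array against the mean log2 signal of 13 platelet markers on the same array, with replicate numbers beside the points. Samples mixed at lysis carry platelet marker signal of 5.66 to 6.03 and stay with cells alone for Ncam1 and Mcam but lie with the platelet cultures for Ceacam1.

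Nectin2, an adherens junction molecule and a ligand of the lymphocyte and platelet receptor Cd226, had 8.32, 8.56, 8.25, 8.23 and 8.01 in exon-array platelet cultures 1 to 5 (probe set 6973161). Samples mixed at lysis had 8.94, 8.69 and 8.94 and cells alone 8.74, 8.90, 8.72, 8.58 and 8.40. The cultures lay below all mixed samples, overlapped cells alone, and were lower than alone at each of the 5 shared replicate numbers, by 0.34 to 0.47. Nectin2 fell by 0.58 ± 0.13 against mixed at lysis (adjusted p = 0.0268 by limma) and differed by -0.39 ± 0.11 from alone (adjusted p = 0.0805). The call against mixed at lysis was lost without platelets 1 (adjusted p = 0.0551) or 3 (0.0608) and without mixed at lysis 4 (0.0992) or 6 (0.132). It was also lost with equal array medians (0.118), after quantile normalization (0.0724) and with a trend in the variance prior (0.0613). With the replicate number as a block it held (-0.71, adjusted p = 0.00628), though the 2 groups share only 2 numbers. The second Nectin2 probe set of the exon arrays (6973589) differed by -0.70 from mixed at lysis and by -0.54 from alone. Against alone Nectin2 passed in 2 of 10 fits with 1 array fewer, without alone 5 or platelets 2 (lowest adjusted p = 0.0383 by limma). With the mean of all probe sets 2 members passed as lower than alone, Bcam and Nectin2.

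Nectin2 on the gene arrays (probe set 10560644) had 7.35, 6.48 and 7.29 with platelets and 6.92, 7.0 and 7.05 with the pellet in replicates 7, 8 and 9. The releasate samples had 7.49, 7.29 and 7.0 and cells alone 7.40, 7.39 and 7.60. All platelet and pellet samples lay below all samples alone, with platelets 8 by far the lowest. The differences of -0.42 ± 0.20 with platelets (adjusted p = 0.536 by limma) and -0.47 ± 0.20 with the pellet (adjusted p = 0.461) did not pass, nor did -0.20 ± 0.20 with the releasate.

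Bcam, the Lutheran laminin receptor known from human epithelia and red cells, is the protein-coding gene next to Nectin2, with 0 others between them. It had 7.29, 7.19, 7.57, 7.0 and 8.19 in exon-array platelet cultures 1 to 5 (probe set 6973653). Samples mixed at lysis had 8.02, 9.65 and 9.35 and cells alone had 9.20, 8.27, 8.36, 7.77 and 9.38. The cultures were lower than cells alone at each of the 5 shared numbers, by 0.77 to 1.91, but number 4 was the lowest and number 5 the highest of each group they share, and the groups overlapped. Bcam differed by -1.15 ± 0.37 from alone (adjusted p = 0.129 by limma) and by -1.56 ± 0.43 from mixed at lysis (adjusted p = 0.0719), and did not pass. It passed against mixed at lysis without mixed at lysis 4 (-2.06, adjusted p = 0.0212) and without platelets 5 (-1.75, adjusted p = 0.0444). The mean of its 2 probe sets passed in both comparisons, at -0.86 from alone (adjusted p = 0.0456) and -1.06 from mixed at lysis (0.0379). Gene arrays (probe set 10560655) gave it 6.67, 6.22 and 6.57 with platelets, against 7.05, 6.66 and 6.83 alone, a difference of -0.36 ± 0.14 (adjusted p = 0.403). With the pellet the difference was -0.26 ± 0.14 and with the releasate -0.03 ± 0.14.

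Alcam, or CD166, binds itself and the lymphocyte receptor Cd6. It had 8.77, 8.80 and 8.11 with platelets and 9.29, 8.94 and 8.66 with the pellet on the gene arrays (probe set 10439895, replicates 7, 8 and 9). The releasate samples had 8.96, 9.03 and 8.59 and cells alone 9.19, 9.11 and 8.92. All platelet samples lay below all samples alone, and replicate 9 was the lowest of every group. The difference with platelets was -0.52 ± 0.20 (adjusted p = 0.398 by limma). With the replicate number as a block it passed (-0.52, adjusted p = 0.03), and Ncam1 and Mcam kept their calls (adjusted p = 0.00688 and 0.00796). The labels do not say that a number marks a shared culture. Pellet and releasate differences of -0.11 ± 0.20 and -0.21 ± 0.20 did not pass.

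L1cam, a neural molecule that binds itself and integrins and is known from invasive tumour edges, had 5.04, 5.02, 5.40, 5.92 and 5.69 in exon-array platelet cultures 1 to 5 (probe set 7017600). Samples mixed at lysis had 5.79, 6.53 and 6.52 and cells alone had 6.29, 5.69, 5.87, 5.71 and 6.45. Cultures 1 to 3 lay below every other sample, while cultures 4 and 5 overlapped both groups. L1cam differed by -0.59 ± 0.22 from alone (adjusted p = 0.225 by limma) and by -0.87 ± 0.26 from mixed at lysis (adjusted p = 0.101). The difference from alone was -0.79 within replicates 1 to 3 and -0.27 within 4 and 5, without a difference past the threshold between the sets (adjusted p = 0.752). L1cam on the gene arrays (probe set 10605113) lay between 6.65 and 6.87 with platelets, against 6.46 to 6.95 alone, and differed by -0.01 ± 0.17, with a 95% interval of -0.39 to 0.37.

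Nectin1, the partner of other nectins at adherens junctions, passed in no comparison. On the exon arrays (probe set 6988592) it had 7.77, 7.96, 7.80, 8.57 and 9.01 in platelet cultures 1 to 5, 7.56, 8.54 and 8.47 mixed at lysis, and 7.80, 7.33, 7.45, 7.66 and 8.77 in cells alone. Replicate 5 was the highest of each group it belongs to, and the groups overlapped. The difference from alone was 0.42 ± 0.32 (adjusted p = 0.727 by limma). Its gene-array difference (probe set 10584615) was 0.20 ± 0.09 with platelets (adjusted p = 0.507), 0.17 ± 0.09 with the pellet and 0.01 ± 0.09 with the releasate.

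The inducible leukocyte integrin ligands passed in no comparison. Icam1, which binds the beta2 integrins and is a known NF-kappaB target, lay between 4.03 and 4.24 in the exon-array platelet cultures (probe set 6987350), between 3.96 and 4.10 in samples mixed at lysis and between 3.90 and 4.33 in cells alone. The difference from alone was 0.04 ± 0.09, with a 95% interval of -0.15 to 0.23. In the gene-array table (probe set 10583519) pellet 7 had 6.05 and stood above the other 11 samples, which lay between 5.41 and 5.65. The Icam1 differences from alone were -0.07 ± 0.13 with platelets, 0.14 ± 0.13 with the pellet and 0.01 ± 0.13 with the releasate, none past the threshold by limma.

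Vcam1, the ligand of the alpha4 integrins, lay between 3.15 and 3.41 in the exon-array platelet cultures (probe set 6908486), between 3.22 and 3.42 mixed at lysis and between 3.09 and 3.44 alone. Its difference from alone was 0.00 ± 0.08, with a 95% interval of -0.17 to 0.18. Gene-array differences (probe set 10501608) were 0.00 ± 0.09 with platelets, -0.07 ± 0.09 with the pellet and 0.03 ± 0.09 with the releasate. Exon-array Vcam1 lay at the 25th percentile of gene means (3.30), near background, so a difference would be understated.

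**Figure D4:**
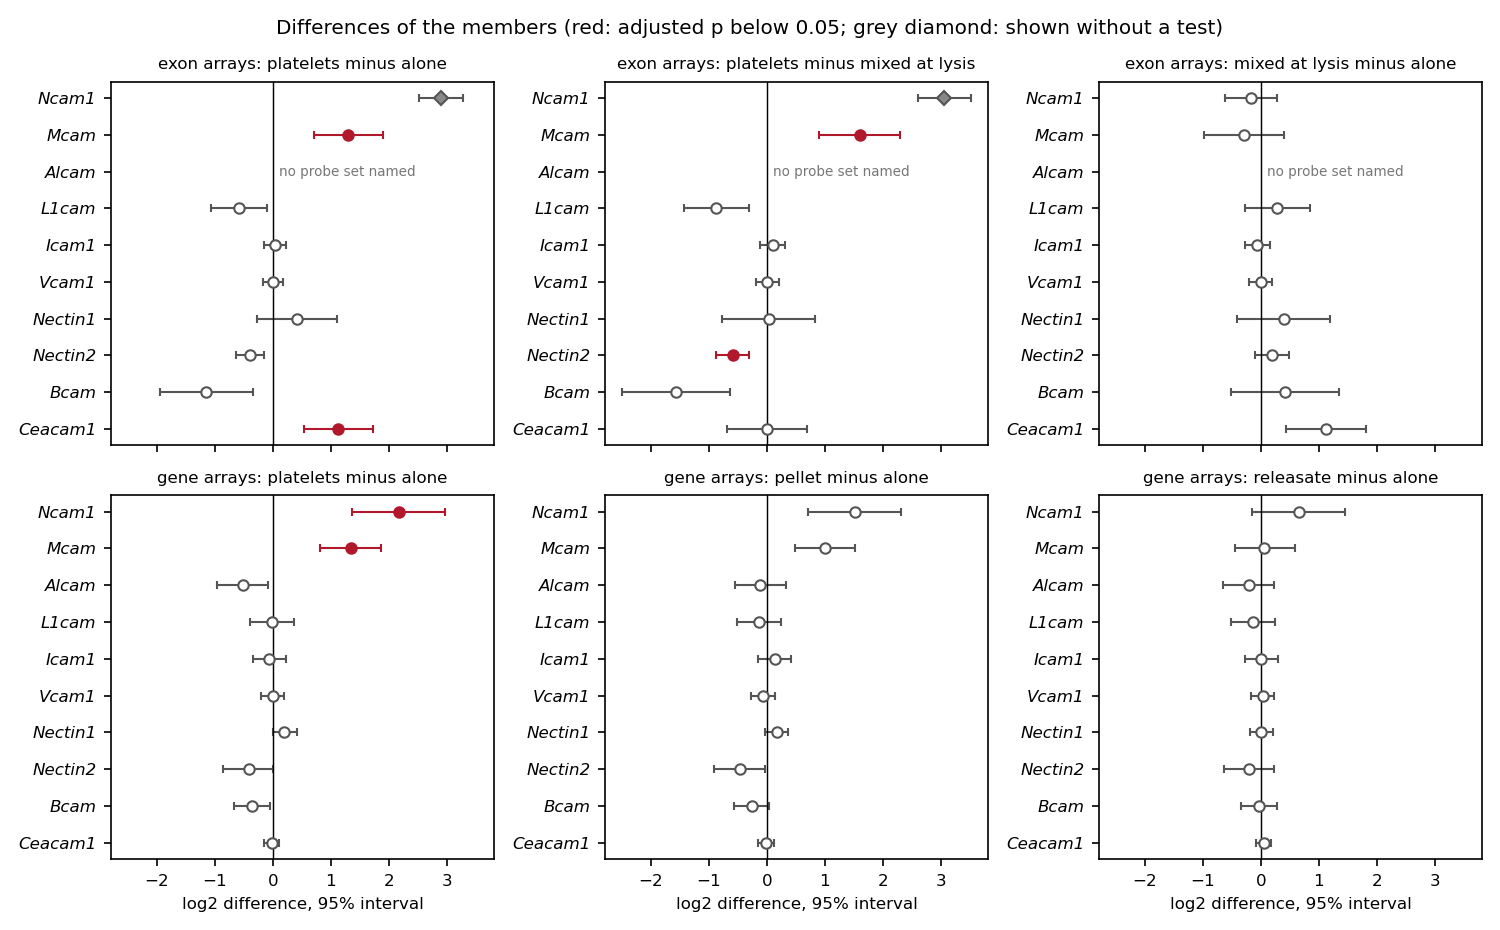
Log2 differences of the members with 95% intervals in 6 comparisons, exon arrays above and gene arrays below. Red points passed the threshold, and the grey diamonds show Ncam1 in the 2 exon-array comparisons given without a test (2.89 and 3.06).

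Other adhesion molecules of the same family were counted from a list of 39 genes, of which exon arrays measured 37 and gene arrays 38. With platelets on the exon arrays 4 rose, 1 fell and 32 did not pass, with a list median of 0.01 beside 0.00 over all genes, of which 2.07% rose and 2.47% fell. The risers were the nectins Nectin3 by 1.41 ± 0.11 (adjusted p = 9.81e-06) and Nectin4 by 1.40 ± 0.15, the nectin-like Cadm4 by 1.08 ± 0.15 and Igsf3 by 0.62 ± 0.09, and Nrcam, of the L1 group, fell by 0.43 ± 0.08, between levels near background (3.05 in the cultures and 3.49 alone). Igsf3 did not pass as the mean of its probe sets (0.28, adjusted p = 0.233), and Nrcam not with equal array medians (adjusted p = 0.0519). All 4 risers also passed against cells mixed at lysis, Igsf3 not with the replicate block (0.46, adjusted p = 0.0967) or as the mean of its probe sets (0.37, adjusted p = 0.152). Within replicates 4 to 6 alone Nectin4 (adjusted p = 0.0937), Cadm4 (0.109) and Igsf3 (0.266) did not pass. Of the gene-array members of the list, 1 rose with platelets, Nectin3 by 1.00 ± 0.10 (adjusted p = 0.00209), and 1 with the pellet, again Nectin3, by 0.97 ± 0.10 (adjusted p = 0.00408), each of 38. Over all genes 0.411% rose with platelets and 0.236% with the pellet. With the releasate 0 of 38 passed by limma, beside 0% of all genes, and Nectin3 differed by 0.44 ± 0.10 (adjusted p = 1).

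Nectin3 prefers Nectin1 and Nectin2 as partners across cell contacts. On the exon arrays it had 5.36, 5.71, 5.55, 5.43 and 5.84 in platelet cultures 1 to 5, 4.26, 4.27 and 4.26 mixed at lysis, and 4.04, 4.04, 4.06, 4.44 and 4.26 in cells alone. Gene-array values were 7.80, 8.03 and 7.79 with platelets and 7.90, 7.86 and 7.79 with the pellet in replicates 7, 8 and 9. The releasate samples had 7.13, 7.32 and 7.50 and cells alone 6.98, 6.91 and 6.75. In both tables all platelet cultures lay above all samples alone, and pellet 7, low for Ncam1 and Mcam, was the highest pellet sample for Nectin3. Its calls with platelets and with the pellet against alone held in every fit with 1 array fewer.

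**Figure D5:**
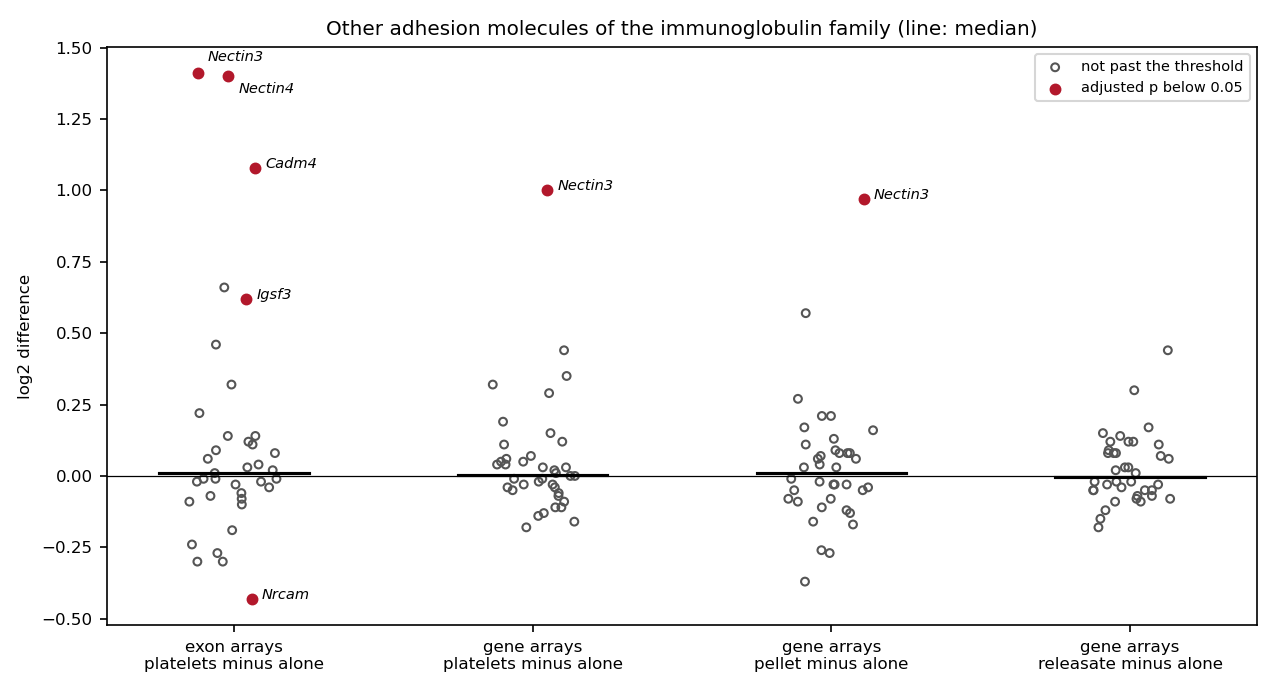
Log2 differences of the other listed adhesion molecules of the family in 4 comparisons, 1 dot per gene, with a line at the list median. Nectin3 passed with platelets in both tables and with the pellet (1.41, 1.00 and 0.97), and no listed gene passed with the releasate.

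Binding partners and modifiers of the members were counted from a list of 35, of which exon arrays measured 33 and gene arrays 34. With platelets on the exon arrays 6 rose, 4 fell and 23 did not pass, with a list median of 0.04, where 2.07% of all genes rose and 2.47% fell. The largest rises were Cd226, the receptor for Nectin2, by 2.31 ± 0.33, the fibronectin receptor subunit Itga5 by 2.00 ± 0.21, and Itgb3, an integrin that binds L1cam and is also a platelet gene, by 1.43 ± 0.17. Cd226 (3.29) and Itgb3 (3.37) were near background in cells alone, so the sizes of their rises are uncertain. The other risers were Fyn, a kinase downstream of Ncam1, by 1.01 ± 0.25 (adjusted p = 0.0406), the membrane linker Msn by 0.69 ± 0.09 and the Ceacam1 partner Havcr2 by 0.56 ± 0.14 (adjusted p = 0.0403). With 1 array fewer the Fyn call was lost in 8 of 10 fits, all but those without platelets 4 or 5, and the Havcr2 call in 6 of 10 (without alone 1, 2 or 3 or platelets 1, 2 or 5). Cd226 averaged 5.59 ± 0.87 (SD, n = 5) in the cultures and 6.22 ± 0.20 (n = 3) mixed at lysis, against 3.29 ± 0.18 (n = 5) alone, so the mixed samples already held it. The falls were Itgb7, the partner of the alpha4 integrin, by 1.76 ± 0.24, Tigit, a lymphocyte receptor of the nectin system, by 1.16 ± 0.23, the Mcam ligand Lgals3 by 0.79 ± 0.15 and the membrane linker Ezr by 0.47 ± 0.12. Tigit averaged 8.82 ± 0.27 in cells alone, where leukocyte markers averaged 3.33 to 3.53. What the Tigit probe set measures in these epithelial cells was not tested. The Ezr call (adjusted p = 0.0495) was lost in 8 of 10 fits that left out 1 array, namely without alone 1, 2, 3 or 4 or platelets 1, 2, 3 or 5. Against mixed at lysis 4 of 33 rose (1.54% of all genes): Itga5 by 1.71 ± 0.25, Itgb3 by 1.04 ± 0.20, Fyn by 1.27 ± 0.29 and Msn by 0.68 ± 0.10. There Itgb7, Tigit and Adam17 fell (2.14% of all genes), and Cd226, Havcr2, Lgals3 and Ezr did not pass. With 1 array fewer the Fyn, Tigit and Adam17 calls were each lost in 6 of 8 fits. The Itgb3 call was lost in 2 of 8 and with the replicate block (0.91, adjusted p = 0.0655). Among the leukocyte integrin subunits of the list, Itgb2 averaged 8.15 ± 0.65 in the cultures and 8.80 ± 0.29 alone, while Itgal had 3.23 ± 0.05 and 3.19 ± 0.08 and Itga4 had 3.12 ± 0.23 and 3.19 ± 0.12, near background, and none of the 3 passed.

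Gene arrays showed that 1 of 34 partners rose and 1 fell, both with platelets and with the pellet, and 0 passed with the releasate. Over all genes 0.411% rose and 0.256% fell with platelets, 0.236% and 0.181% with the pellet, and 0% passed with the releasate. Cd226 rose by 0.92 ± 0.11 with platelets and by 0.74 ± 0.11 with the pellet, and Tigit fell by 0.49 ± 0.09 and 0.56 ± 0.09. Tigit averaged 9.83 ± 0.08 in cells alone on these arrays, with the same limit. The Tigit call with platelets was lost in all 6 fits with 1 array fewer (adjusted p = 0.0648 to 0.161). With the pellet the Tigit and Cd226 calls were each lost in 5 of 6, all but the fit without pellet 7. Itga5, at 9.95 ± 0.50 with platelets and 8.88 ± 0.10 alone, differed by 1.07 ± 0.38 and did not pass there (adjusted p = 0.327).

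The 5 genes whose exon-array signal was most like that of Ncam1 were Ccn4 (Pearson r = 0.994 over 13 arrays), Denn2b (0.989), Stab1 (0.987), Lrp4 (0.985) and Epb41l2 (0.984). Over the 12 gene arrays their r with Ncam1 was 0.969, 0.928, 0.828, 0.847 and 0.828, in the same order. The arrays share their groups, so these values describe a pattern over conditions. Among the other 8 exon-array members and the other 9 gene-array members Mcam had the highest r with Ncam1, 0.906 and 0.939.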

How the data were processed

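The deposited values are log2 signals per probe set after RMA, made by the authors with Partek 6.4 for the exon arrays and Partek 6.5 for the gene arrays, per the submitters' processing notes. The RMA options are not given in the sources used here, and the labelling kits differed, per the labels' protocols. Of 44343 exon-array probe sets 22781 carry 1 symbol, 2085 several and 19477 none, and of 35556 gene-array probe sets 21789, 1621 and 12146. Probe sets with 1 symbol were kept, 1 per gene by the highest mean. Each table was fitted with limma 3.58.1 (R 4.3.3) over all its groups, without a block, and no test crosses tables. The fit was tested on simulated data. Members and lists were chosen with earlier results of these data known. Named from the lists were the called genes with the largest differences, up to 6 each way per list and table. On the gene arrays correlations of deviations between samples of the same number were 0.287 to 0.442 for platelets with alone. They were 0.292 to 0.381 for releasate with alone, -0.037 to 0.339 for pellet with alone and 0.07 to 0.303 for platelets with releasate. Samples of unlike numbers were not compared, so whether the numbers mark pairs stays unsettled. No depth is available for arrays, and their number limits the precision. Alternatives changed scaling, filter, probe sets, weights, blocks and samples.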

Additional observations from a re-analysis of the deposited data

Results flagged for a closer look

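Ncam1 in exon-array platelet culture 4 had a log2 signal of 7.23, set apart from the other 4 platelet cultures (7.79 to 7.99) by 0.734 of the group's range. Of the 18 groups of 5 examined it was the 1 that exceeded Dixon's 95% value, and chance flags about 5% of groups. The same culture had the lowest platelet marker mean of its group, 4.68, against 5.24 to 6.69 in the other cultures, and the part of this in its Ncam1 signal was not tested.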

How the results depend on the processing

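Of 1298 alternative values of single members 1238 stayed on their side of the threshold, 26 gained and 34 lost a call, and 0 called values reversed. The 1298 include members not called in the main fit, which count as staying while uncalled, so their share does not measure how stable the calls are. Of 600 for list genes, all called in the main fit, 118 lost a call. Of 74 alternative counts 63 stayed within 1.5 times. Counts of 0 that stayed at 0 are among the 63, and fits with 1 array fewer are not among the 74, so this share does not measure stability either. Exon-array counts here include Ncam1, whose difference is given without a test. With platelets against alone they were 3, against 5 with the replicate block, 6 with array weights, 5 with the mean of all probe sets and 0 with replicates 4 and 5 only (without Ncam1 2, against 4, 5, 4 and 0; all genes: 864, against 1326, 1750, 876 and 1). Against mixed at lysis they were 3, against 5 with array weights and 1 with replicates 4 to 6 only (without Ncam1 2, against 4 and 0; all genes: 699, against 4402 and 70). Mixed at lysis against alone gave 0, and 1, Ceacam1, with array weights (all genes: 9 and 231). On the gene arrays the pellet gave 0, and 2 with the replicate block or with array weights (all genes: 83, against 359 and 501). Platelets against releasate gave 0, and 1, Mcam, with the block (adjusted p = 0.0275 by limma; all genes: 9 and 98). Platelets against alone gave 2, and 0 without alone 8 and platelets 9 together (all genes: 133 and 30). With the block on the exon arrays Nectin2 (adjusted p = 0.0062) and Bcam (0.00476) also passed against alone. Against mixed at lysis Bcam passed with it (0.0284) and Mcam did not (1.14, 0.0877). On the exon arrays correlations of deviations between samples of the same number were -0.255 to 0.583 for platelets with alone. They were -0.046 and 0.502 for platelets with mixed at lysis, and 0.652 and 0.44 for mixed at lysis with alone. Samples of unlike numbers were not compared, so whether the numbers mark pairs is unsettled there too. Leaving out 1 array, exon-array counts were 2 to 3 for platelets against alone (without Ncam1 1 to 2; all genes 632 to 846) and 1 to 4 against mixed at lysis (0 to 3; 397 to 756). Gene-array counts against alone were 0 to 2 for platelets (all genes 21 to 119) and for the pellet (8 to 133), and 0 to 0 elsewhere. The cause of these moves was not tested. Signals near the 25th percentile of gene means limit Vcam1, Ceacam1, Cd226, Itgb3, Fyn and Nrcam.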

Other observations

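Krt14, a basal epithelial keratin, was the 1 of 8 measured epithelial markers past the threshold with platelets on the exon arrays, beside 4.55% of all genes. The median difference of the 8 was -0.04. It averaged 11.78 ± 0.17 (SD, n = 5) in exon-array platelet cultures and 10.61 ± 0.40 (n = 3) mixed at lysis, against 10.59 ± 0.45 (n = 5) alone. It rose by 1.20 ± 0.20 against alone (adjusted p = 0.00414 by limma) and by 2.21 ± 0.43 with platelets on the gene arrays (adjusted p = 0.0461). On the exon arrays Krt5 was near background, at 3.61 in the cultures and 3.55 alone, and differed by 0.07 ± 0.10. Krt8, Krt18 and Krt19 differed there by -0.07, -0.25 and -0.01, and none of these keratins passed. Cdh1, the E-cadherin of adherens junctions, differed with platelets by -0.15 ± 0.24 (exon arrays) and 0.01 ± 0.13 (gene arrays), neither past the threshold.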
